A study of Mus musculus with 9 samples.

Results

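The transcriptome described here is that of vehicle-treated GT1-7-OX1 cells at rest. It was read from the 3 vehicle samples of a series of 9, over all 37411 genes of the deposited table, and no treatment was compared. GT1-7 is a mouse line of hypothalamic neurons that were immortalised with the SV40 T antigen under the *Gnrh1* promoter. In GT1-7-OX1 cells a lentiviral construct with a CMV promoter had added human OX1, the orexin receptor that *Hcrtr1* encodes in the mouse, and the transduced cells were a population expanded on GFP rather than 1 clone. The cells had grown close to confluence in flasks and then stood for 8 h in fresh warm medium with water, the vehicle. The other 6 samples had received 200 nM orexin A for 3 h or 8 h (3 each) and were not analysed here. The methods repeat the culture for each replicate, but the labels tie no sample to a separate batch of cells, so the SD values below measure the spread between these 3 samples.

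GnRH neurons arise in the olfactory placode, migrate into the forebrain and release gonadotropin-releasing hormone in pulses that drive the pituitary gonadotrophs. They are few and scattered, and GT1-7 cells have long served as a dividing stand-in for them. Their identity rests on homeodomain factors that act on the *Gnrh1* enhancer and promoter, on the enzymes that cut and amidate the prohormone, and on the channels and receptors that set firing.

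Levels are given as TPM, which divides counts by gene length and scales each sample to a fixed total, so that genes of 1 sample can be compared. A mean of 2 TPM, the threshold that the study set for its neural marker genes, is used here for every gene. By it 13983 of 37411 genes (37.4%) were expressed, and of the 21617 protein-coding genes 11033 (51.0%). The share of 51.0% is the one to set beside the counts of coding genes in each list below. The median was 0.285 TPM over all genes and 2.37 TPM over protein-coding genes. The last gene inside the threshold was *Gper1* at 2.0 TPM and the first outside was *Etaa1os* at 1.998 TPM. With 17293093 to 18168541 counts per sample, 1 count in each sample was worth 0.0621 TPM in a gene of 2000 bases and 1.24 TPM in one of 100 bases, so a low level of a short RNA rested on a few counts. A count of 0 over all 3 samples, found for 13739 genes, is read here against a floor of 3 counts in the 53142946 counts of the group. These floors cover counting error only.

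The 5 genes that mark these cells stood well above the threshold in every sample. *Gnrh1* (chromosome 14, 67745181 to 67749439), the GnRH precursor, had 4050.2, 4144 and 3577 TPM. *Six6* (chromosome 12, 72939892 to 72944899), a homeodomain factor of the eye field and ventral forebrain, had 115, 117 and 116 TPM and *Clstn2* (chromosome 9, 97444395 to 98033181), a synaptic calsyntenin, 117, 124 and 104 TPM. *Th* (chromosome 7, 142892752 to 142931128), the first enzyme of catecholamine synthesis, had 67.7, 72.6 and 66.8 TPM and *Dlx5* (chromosome 6, 6877805 to 6882085), a distal-less homeodomain factor, 58.2, 56.9 and 54.0 TPM. *Gnrh1* was lowest in replicate 3 and *Six6* was nearly level over the samples, with a CV (SD over mean) of 0.900% against 7.75%. The ranks of the 5 genes among all genes were 8 for *Gnrh1*, 1042 for *Six6*, 1059 for *Clstn2*, 2093 for *Th* and 2684 for *Dlx5*.

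The promoters of 3 of these 5 marker genes were matched in RefSeq (GRCm38.p6, 250 bases before to 50 after the start site) and are shown because they are the regulatory sequence next to the genes that define the line. Capitals mark the cyclic AMP response element TGACGTCA, a palindrome, and the CCAAT box, searched as CCAAT and ATTGG. The windows are chr12:72939632-72939931 on the plus strand for *Six6*, chr7:142899946-142900245 on the minus strand for *Th* and chr9:98033118-98033417 on the minus strand for *Clstn2*. The *Th* window lies inside the span given above for that gene, so its RefSeq start site is not the end of that span. For *Six6* and *Clstn2* the window covers the end of the span where the gene starts.
Six6: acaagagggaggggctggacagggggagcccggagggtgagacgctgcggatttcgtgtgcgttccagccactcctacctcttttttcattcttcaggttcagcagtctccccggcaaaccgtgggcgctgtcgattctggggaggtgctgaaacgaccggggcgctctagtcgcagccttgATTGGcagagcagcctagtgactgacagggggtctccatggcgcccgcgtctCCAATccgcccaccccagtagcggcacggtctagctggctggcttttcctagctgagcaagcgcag
Th: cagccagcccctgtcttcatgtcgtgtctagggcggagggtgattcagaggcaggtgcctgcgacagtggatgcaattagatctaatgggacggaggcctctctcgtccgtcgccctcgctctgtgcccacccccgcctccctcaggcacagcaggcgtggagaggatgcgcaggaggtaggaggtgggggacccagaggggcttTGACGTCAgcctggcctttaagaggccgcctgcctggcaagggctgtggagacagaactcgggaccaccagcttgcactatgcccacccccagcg
Clstn2: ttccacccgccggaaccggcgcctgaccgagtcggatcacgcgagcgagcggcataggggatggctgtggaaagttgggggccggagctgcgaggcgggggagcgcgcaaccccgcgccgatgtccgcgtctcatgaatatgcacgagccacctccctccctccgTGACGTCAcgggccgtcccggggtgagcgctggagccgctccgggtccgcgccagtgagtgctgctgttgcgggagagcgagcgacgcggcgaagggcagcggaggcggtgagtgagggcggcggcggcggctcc

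*Th* and *Clstn2* each held 1 such response element, with its first base at position -45 from the start site in *Th* and at -85 in *Clstn2*, and *Six6* held 2 CCAAT boxes, a motif found in 37.4% of the promoters of the reference. The response element was present in 1.79% of the 32851 promoters of the reference. Among promoters of genes in the table it was present in 3.41% of 1144 at genes of 100 TPM or more and in 0.842% of 5226 at genes without a count. The TATA box (TATAAA, searched on both strands) went the other way, with 7.52% and 24.4% of the same promoters, and the median ratio of observed to expected CpG was 0.841 against 0.198. These shares describe letters in a window and not binding.

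A few RNAs held a large part of the TPM total. The libraries were made from total RNA depleted of ribosomal RNA, and the shares below hold for that preparation. The 10 most abundant genes held 36.3 ± 0.898% of TPM (mean ± SD, n = 3), the first 100 held 45.9 ± 0.906% and the first 1000 held 65.8 ± 0.608%. The mitochondrial ribosomal RNAs took 18.4% and structural and small RNAs, among them the 7SK RNA and the RNA subunits of RNase P (*Rpph1*) and RNase MRP (*Rmrp*), took 19.6%. Without these RNAs and the mitochondrial protein genes every other level would be 1.62 to 1.66 times higher, and that of *Gnrh1* would be 6454 TPM, so the levels are shares of this total and not transcripts per cell. In counts, which are not divided by length, the same 2 classes took 12.7% and 2.60%. Protein-coding genes other than histones, ribosomal proteins and mitochondrial genes held 52.5% of TPM and 79.4% of counts. At the other end, 8048 genes at 10 to 100 TPM held 28.2% of TPM and 1244 genes at 100 to 1000 TPM held 27.1%.

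Among nuclear protein-coding genes without ribosomal proteins and histones, *Actb*, the cytoplasmic actin, had 3932 ± 139 TPM and *Gnrh1* had 3924 ± 304 TPM, and their samples overlapped, so the order of these 2 did not exceed the spread. *B2m*, the light chain of MHC class I, followed at 2880.2 ± 80.3 TPM, *Eef1a1*, the elongation factor that brings aminoacyl-tRNA to the ribosome, at 2557 ± 31.8 TPM and *Cst3*, the secreted protease inhibitor cystatin C, at 2344 ± 346 TPM. *Cst3* had 1948, 2590.1 and 2493 TPM in the 3 samples and overlapped the range of *Eef1a1* through replicate 2, but *Eef1a1* was the higher in every sample. Next came *Lgals1* (galectin 1, 1834 ± 93.9 TPM), the intermediate filament gene *Vim* (1505 ± 45.8 TPM), the tubulins *Tubb5* (1445 ± 20.2 TPM) and *Tuba1a* (1136 ± 17.3 TPM), the light chain of nonmuscle myosin *Myl6* (1277 ± 25.7 TPM) and the actin crosslinker *Flna* (1192 ± 55.3 TPM). The class I heavy chains *H2-D1* (1077, 1109 and 909 TPM) and *H2-K1* (1095, 1044 and 868 TPM) were also among the first 20, both lowest in replicate 3. Secreted matrix proteins were represented by *Fstl1* (1048 ± 60.6 TPM) and *Sparc* (861 ± 34.9 TPM).

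**Figure D1:**
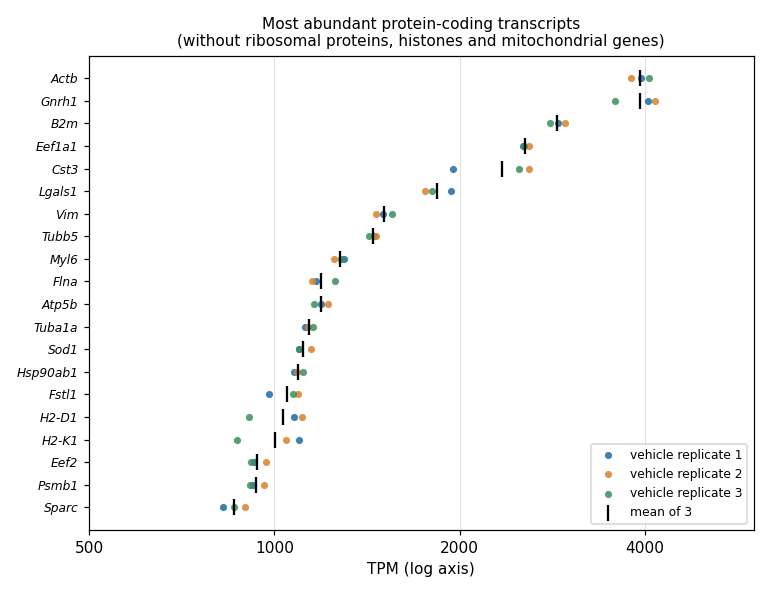
Deposited TPM (log axis) of the 20 protein-coding genes with the highest means, without ribosomal proteins, histones and mitochondrial genes, in the 3 vehicle samples (dots) with their mean (bar). *Gnrh1*, at 3577 to 4144 TPM, lies beside *Actb* and above every other gene shown.

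Of the long noncoding RNAs, *Malat1*, a nuclear speckle RNA, had 1693 ± 59.0 TPM and *Dlx6os1*, the antisense transcript of the *Dlx5*-*Dlx6* locus also known as Evf2, had 224 ± 15.9 TPM. *Xist*, the RNA of the inactive X chromosome, had 52.5, 59.6 and 59.0 TPM, while the Y-linked genes *Ddx3y*, *Eif2s3y* and *Uty* had no counts. *Peg10*, an imprinted gene derived from a retrotransposon, was among the most abundant coding transcripts at 711 ± 38.2 TPM, and its neighbour *Sgce*, a sarcoglycan, had 79.3 ± 5.12 TPM. Of 32 imprinted genes 19 were at 2 TPM or more, among them *Igf2r*, the clearance receptor of insulin-like growth factor, at 228 ± 8.97 TPM, *Mest* at 64.4 ± 5.78 TPM and *Ndn* (necdin) at 62.3 ± 1.47 TPM. The maternally expressed RNA *Meg3* and its paternally expressed neighbour *Dlk1* had no counts.

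A listed 0 is not always the lack of a transcript. Of 286 subunits of the ribosome, the proteasome, the RNA polymerases, complex I, ATP synthase and the spliceosome, 5 were below 2 TPM and 3 of these had no counts. Those without counts were *Rpl18*, a protein of every cytosolic ribosome, *Mrpl53*, a protein of mitochondrial ribosomes, and *Psma8*, a proteasome subunit of the testis. *mt-Co1*, a core subunit of cytochrome oxidase, had 4393 TPM while *mt-Co2*, of the same complex, had 0.357 TPM. How reads that match several positions were treated is not given in the sources used here, and the cause of these low values was not tested. Where the text below says that a gene had no counts, it speaks of the table.

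Neuronal markers were present in part. Of 28 pan-neuronal markers 12 were at 2 TPM or more (42.9%, against 51.0% of protein-coding genes), with a median of 1.64 TPM. *Uchl1*, a ubiquitin hydrolase of neurons, had 172, 161 and 178 TPM and *Ncam1*, the neural cell adhesion molecule, 89.8, 94.4 and 101 TPM. *Nsg1*, of neuronal endosomes, had 69.1 ± 3.74 TPM, *Tubb3*, the neuronal tubulin, 52.3 ± 1.52 TPM, *Elavl3*, an RNA-binding protein of neurons, 19.5 ± 1.32 TPM, *Stmn3*, a stathmin, 17.9 ± 1.01 TPM, and *Syn1*, the vesicle protein synapsin 1, 9.0 ± 0.846 TPM. Below the threshold lay *Syt1*, the calcium sensor of fast release, at 1.75 ± 0.216 TPM and *Mapt*, which encodes tau, at 0.949 ± 0.0885 TPM. Of *Snap25*, *Rbfox3* (NeuN), *Stmn2* and *Dcx*, which mark postmitotic or newborn neurons, *Snap25* was the highest at 0.109 TPM. *Gap43*, *Nefl* and *Vsnl1* had no counts. Of another list of 19 neuronal markers all 19 were at 2 TPM or more, from *Pcsk2* at 3.10 TPM to *Clstn2*, and of 9 glial, vascular and immune markers beside it 0 were, with *Cd68* the highest at 1.92 ± 0.724 TPM. The study describes both as known marker genes and reported their levels in these same samples. It does not say how the members were picked, so the lists are not independent evidence of their direction. In bulk RNA, fewer cells with a transcript and less of it per cell cannot be told apart.

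Markers of other cell types were at 2 TPM or more for 11 of 55 genes (20%, against 51.0% of protein-coding genes). The highest were *Vim*, which tanycytes and many dividing cells express, and *Glul*, glutamine synthetase, at 139.5 ± 10.28 TPM. The 11 fibroblast, vascular, glial and microglial genes also included *Postn* (24.8, 30.7 and 31.7 TPM) and *Col1a2* (28.3, 29.1 and 24.4 TPM) of the extracellular matrix, *Cnp* (21.03 ± 2.41 TPM) of myelinating cells, *Kdr* (7.10 ± 0.399 TPM), the VEGF receptor of endothelium, and *Tmem119* (5.22 ± 0.322 TPM) and *Csf1r* (3.11 ± 0.0843 TPM), which mark microglia in the brain. In none of these genes did 1 sample alone carry the level. Defining genes of the same types had no counts, such as *Aqp4*, *Gjb6* and *Slc1a3* of astrocytes, *Mag* of oligodendrocytes, *Ptprc*, *Trem2* and *Tyrobp* of microglia, and *Lum* of fibroblasts. At a threshold of 1 TPM 20 of the 55 genes passed, and 19 passed 2 TPM when the mitochondrial, structural and small RNAs were left out of the total.

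**Figure D2:**
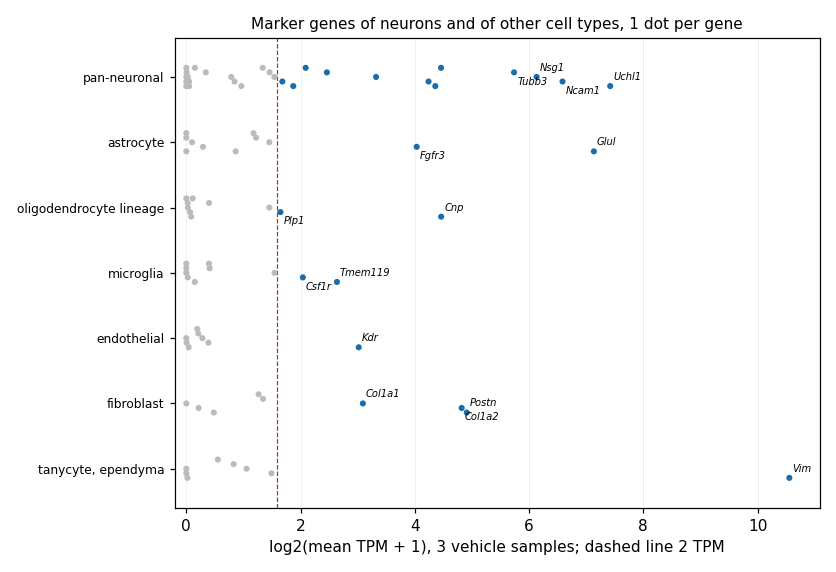
Mean TPM of each marker gene over the 3 vehicle samples, as log2(TPM + 1), in rows by cell type, with genes at 2 TPM or more in blue and the others in grey. The pan-neuronal row holds 12 blue dots of 28, and the rows of other cell types hold 11 of 55 in all, of which *Vim* at 1505 TPM is the highest.

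Genes of the cell cycle were among the more abundant ones. Of 38 cell cycle and DNA replication genes 33 were at 2 TPM or more (86.8%, against 51.0% of protein-coding genes). The median of the 38 was 95.8 TPM. *Top2a*, the topoisomerase of chromosome segregation, had 508, 512 and 517 TPM, *Mki67*, which encodes the Ki-67 antigen, 432, 420.0 and 418 TPM and *Pcna*, the sliding clamp of DNA polymerase, 414, 446 and 388 TPM. The SV40 T antigen binds Trp53 and the Rb family, and of 28 genes of these pathways 21 were at 2 TPM or more. *Trp53* itself had 59.1 ± 4.16 TPM and *Rb1* 61.0 ± 2.0 TPM. The CDK inhibitors *Cdkn2c* (356 ± 12.3 TPM), *Cdkn1b* (142 ± 5.12 TPM), *Cdkn2d* (111 ± 10.48 TPM), *Cdkn2a* (70.2 ± 7.56 TPM) and *Cdkn1a* (35.0 ± 2.91 TPM) were all expressed. Progenitor factors were mostly at or near 0, with 4 of 28 at 2 TPM or more. *Msi1*, an RNA-binding protein of neural progenitors, had 36.4 ± 2.37 TPM and *Rest*, the repressor of neuronal genes in nonneuronal cells, 30.5 ± 0.763 TPM, while *Sox2*, *Sox3* and *Neurog1* had no counts.

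Of 524 members of 17 families 202 were at 2 TPM or more (38.5%), below the 51.0% of protein-coding genes, with a median of 0.256 TPM. Of 191 homeobox genes 53 were (27.7%), and 78 had no counts. *Isl1*, a LIM homeodomain factor of early GnRH neurons and hypothalamic neurons, had 145, 157 and 154 TPM and was the highest homeobox gene. *Six6* of the sine oculis family and *Pbx3* (116, 124 and 121 TPM) of the TALE family, a partner of other homeodomain proteins, were also high. Replicates of *Isl1* lay above all those of *Pbx3* and *Six6*. The ranges of *Pbx3* and *Six6* overlapped, with *Pbx3* the higher in every sample. None of the 39 HOX genes, which pattern the trunk and hindbrain, reached 2 TPM, and 28 had no counts.

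Most expressed members of the sine oculis, Dlx and Zic families were chromosomal neighbours. *Six6* and *Six4* (8.69 ± 0.438 TPM) lie within 174 kb on chromosome 12, while *Six2* and *Six3* on chromosome 17 had no counts, which allows up to 0.0586 and 0.0337 TPM. *Six5*, outside both clusters, had 18.1 ± 2.20 TPM. *Dlx6* (62.5, 68.2 and 64.8 TPM), *Dlx5* and *Dlx6os1* (225, 208 and 239 TPM) lie within 18.8 kb on chromosome 6, while *Dlx1* on chromosome 2 had 0.230, 0.648 and 0.180 TPM and *Dlx2*, *Dlx3* and *Dlx4* had no counts. *Zic2* (277, 312 and 274 TPM), a zinc finger factor of the forebrain midline, and *Zic5* (84.4, 91.9 and 90.9 TPM) lie within 23.1 kb on chromosome 14, while *Zic1* and *Zic4* had no counts. Irx genes did not follow this split. *Irx5* (10.1 ± 0.305 TPM) and *Irx3* (5.17 ± 1.04 TPM) of chromosome 8 and *Irx2* (7.501 ± 1.08 TPM) of chromosome 13 were expressed, and *Irx6* and *Irx4* of the same clusters had no counts, as did *Irx1*. Positions are those of GENCODE M21 on GRCm38. The library kit was stranded, but the strand setting of the counting is not given in the sources used here. *Dlx6os1* runs antisense over *Dlx6*, so reads of these 2 genes may be shared.

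**Figure D3:**
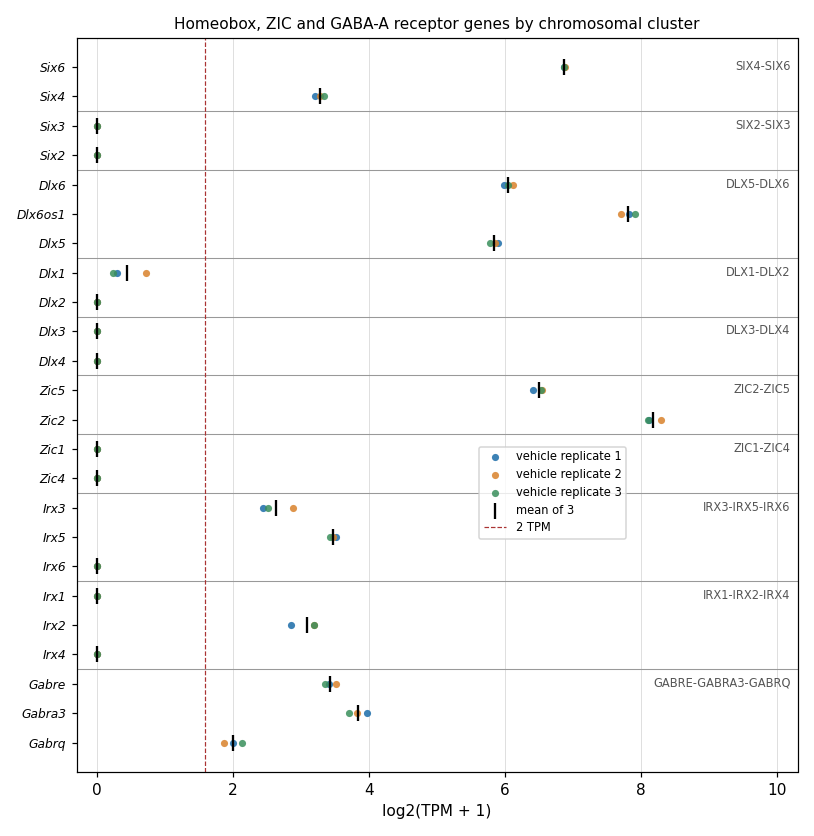
Level of sine oculis, Dlx, Zic, Irx and GABA-A receptor genes by chromosomal cluster, as log2(TPM + 1) in each vehicle sample (dots) with the mean (bar). Clusters of *Six6*, *Dlx5* and *Zic2* lie to the right of the 2 TPM line and their paralogous clusters at or near 0.

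The lists of regional factors were each expressed in part. Of 20 genes of the list of DLX and related GABAergic forebrain factors 12 were at 2 TPM or more, of 19 olfactory placode genes 9, and of 14 genes of the rostral hypothalamus and eye field 5. In the last list *Otx2* (42.8, 47.3 and 45.4 TPM), which activates the *Gnrh1* promoter, *Vax1* (42.5, 46.2 and 41.5 TPM), a ventral forebrain factor required for GnRH neurons, *Lhx2* (21.6 ± 1.82 TPM) and *Vax2* (8.60 ± 0.660 TPM) were expressed beside *Six6*. *Rax*, *Hesx1*, *Fezf1*, *Six3* and *Sox2* of the same list had no counts. Of the placode list *Ebf3* (74.5 ± 8.49 TPM) and *Ebf1* (35.9 ± 1.20 TPM), which act in olfactory neurons, were expressed. So was *Eya4* (41.4 ± 0.934 TPM), a partner of sine oculis factors. Of 22 genes of hypothalamic nuclei only *Isl1*, *Lmx1b* (15.1 ± 1.19 TPM) and *Hmx2* (2.89 ± 0.366 TPM) passed, and *Nkx2-1*, *Otp* and *Bsx* had no counts. Of 11 telencephalic genes 2 passed, *Lhx2*, which is also in the rostral list, and *Lhx6* (2.29 ± 0.0482 TPM), while *Emx1* had no counts. Of 16 midbrain and hindbrain genes 4 passed, the highest of them *En2* at 7.92 ± 0.188 TPM.

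Of 39 genes listed as regulators of *Gnrh1*, 28 were at 2 TPM or more (71.8%, against 51.0% of protein-coding genes). Any members first described as regulators in this same cell line were not set apart. The list was also chosen with earlier results of these data known, so the difference from 51.0% is not independent evidence. The median of the 39 was 14.8 TPM, and 4 had no counts. The groucho family genes *Aes* (265 ± 9.54 TPM), *Tle3* (32.1 ± 0.108 TPM) and *Tle4* (27.5 ± 1.28 TPM) were all present. Octamer-binding *Pou2f1*, the Oct-1 factor of the *Gnrh1* neuron-specific enhancer, had 14.9, 14.8 and 14.8 TPM. *Meis1* (45.9, 48.7 and 45.4 TPM), a homeodomain factor of the TALE family, was higher. *Gata4* had 17.7 ± 1.0 TPM and *Gata2* 2.38 ± 0.452 TPM. *Msx2*, a repressor, and *Dlx2*, an activator, had no counts, and the repressor *Zeb1* had 33.5 ± 1.28 TPM. *Jun*, an AP-1 subunit, had 97.7 ± 10.8 TPM.

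The bZIP family, which also holds AP-1 and the stress factors, had the largest number of expressed members of the 17 families, 37 of 49 (75.5%, against 13 of 17 or 76.5% in the TALE family), and its summed level was 1699 to 1702 TPM in the 3 samples. *Atf5* (248 ± 21.02 TPM), *Atf4* (206 ± 15.4 TPM) and *Ddit3* (81.0 ± 8.28 TPM) of the integrated stress response and *Nfe2l1* (136 ± 6.94 TPM) of proteasome gene control were among the higher ones. Among nuclear receptors 21 of 49 were expressed. *Nr3c1*, the glucocorticoid receptor, had 68.6, 76.3 and 79.8 TPM, and the thyroid hormone receptors *Thra* and *Thrb* had 37.7 ± 4.31 and 24.2 ± 0.673 TPM. The oestrogen receptors *Esr1* and *Esr2* were at 0.0263 and 0.0367 TPM and *Pgr*, the progesterone receptor, had no counts. SOX genes were represented by *Sox12* (29.0 ± 0.837 TPM), *Sox11* (22.8 ± 0.428 TPM) and *Sox4* (6.44 ± 0.119 TPM), the group that acts in differentiating neurons, and by *Sox1* at 2.06 ± 0.367 TPM.

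Most neuropeptide genes other than *Gnrh1* were below 2 TPM. Of 95 neuropeptide and granin precursors 18 were at 2 TPM or more (18.9%, against 51.0% of protein-coding genes). No counts were found for 36, and the median was 0.0787 TPM. After *Gnrh1* the next was *Scg5* (84.5, 95.7 and 86.9 TPM), which encodes the 7B2 chaperone of prohormone convertase 2. *Enho* (57.1 ± 4.68 TPM), the adropin precursor, *Pcsk1n* (35.7 ± 3.58 TPM), the proSAAS precursor, *Vgf* (26.1 ± 3.10 TPM) and *Nucb2* (18.5 ± 0.197 TPM), the nesfatin precursor, followed. Lower were *Pthlh* (9.70 ± 1.08 TPM), a parathyroid hormone relative, *Apln* (6.63 ± 0.454 TPM), the apelin precursor, *Nmb* (4.13 ± 0.684 TPM), neuromedin B, *Ghrl* (3.65 ± 0.491 TPM), the ghrelin precursor, and *Agrp* (3.20 ± 0.238 TPM), an antagonist of melanocortin receptors. Peptides of other hypothalamic neurons, among them *Kiss1*, *Pomc*, *Npy*, *Avp*, *Crh* and *Penk*, had no counts.

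The GnRH decapeptide is cut from its precursor, its C terminus is trimmed and amidated, and its N-terminal glutamine is cyclised. Of 25 genes of this route and of granule release, 18 were at 2 TPM or more. Among the convertases *Furin* had 42.8, 45.4 and 43.3 TPM, *Pcsk7* 17.1, 19.3 and 18.9 TPM and *Pcsk6* 9.71, 10.1 and 10.29 TPM. *Pcsk2*, the convertase of dense core granules, had 3.05, 3.33 and 2.93 TPM and was below all samples of the others, and *Pcsk1* had no counts (up to 0.0246 TPM). *Cpd*, a carboxypeptidase of the trans-Golgi, had 411, 460.1 and 474 TPM and *Cpe*, the carboxypeptidase of granules, 76.4, 62.8 and 66.9 TPM. *Pam*, the amidating enzyme, had 253, 254 and 249 TPM, and of the glutaminyl cyclases *Qpctl*, of the Golgi, had 26.2 ± 1.03 TPM and *Qpct*, which is secreted, 3.08 ± 0.279 TPM. The peptidases *Prep* (45.7 ± 3.03 TPM) and *Thop1* (45.8 ± 3.86 TPM), which cleave GnRH, were at like levels.

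For release, 38 of 61 genes of the SNARE and vesicle machinery were at 2 TPM or more (62.3%, against 51.0% of protein-coding genes). *Vamp3* (178, 194 and 191 TPM) was the highest, and *Snap23* (29.8 ± 1.19 TPM), *Snap29* (49.3 ± 2.06 TPM) and *Snap47* (39.3 ± 0.675 TPM) were expressed while *Snap25*, the neuronal form, was at 0.159, 0.114 and 0.0550 TPM. *Rab3a* (32.8 ± 2.87 TPM), *Cplx2* (21.9 ± 1.85 TPM), a complexin, and *Cadps* (14.1 ± 0.105 TPM), a priming factor of dense core vesicles, were present. Among synaptotagmins *Syt11* (69.9 ± 3.21 TPM) and *Syt13* (33.2 ± 1.95 TPM), which lack calcium binding, exceeded *Syt1*. The granins *Scg2* (no counts), *Chga* (0.152 TPM) and *Chgb* (3.83 ± 0.283 TPM) were low.

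**Figure D4:**
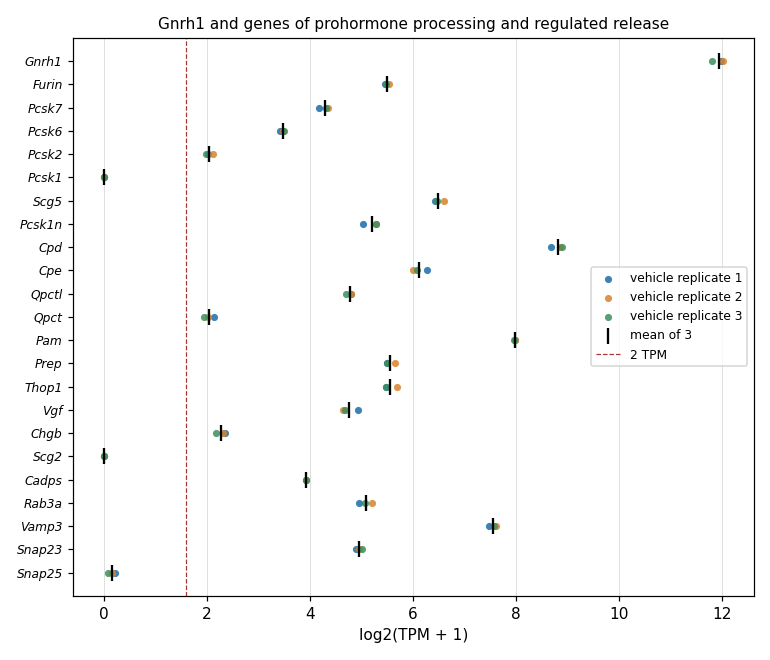
*Gnrh1* and genes of prohormone cleavage, trimming, cyclisation, amidation, degradation and release, as log2(TPM + 1) in each vehicle sample (dots) with the mean (bar) and a dashed line at 2 TPM. *Pcsk1*, *Scg2* and *Snap25* lie at or near 0, while *Cpd* and *Pam* are the highest after *Gnrh1*.

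Enzymes of small transmitters formed broken sets. *Th* and the genes of its cofactor tetrahydrobiopterin, *Gch1* (13.1 ± 0.752 TPM), *Pts* (35.8 ± 0.153 TPM), *Spr* (40.4 ± 1.58 TPM) and *Qdpr* (22.9 ± 1.17 TPM), were expressed. *Slc18a2*, the vesicular monoamine transporter, had 6.30, 6.74 and 7.11 TPM. *Ddc*, which would turn the product of Th into dopamine, had 0.0560, 0.0610 and 0.0590 TPM, and the reuptake transporters *Slc6a3* and *Slc6a2* had no counts. *Gad1*, one of the GABA synthesis enzymes, had 11.3, 14.8 and 13.7 TPM, while *Gad2* and the vesicular transporter *Slc32a1* had no counts. In all 15 of 36 such genes were at 2 TPM or more.

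Growth factors and cytokines were at 2 TPM or more for 52 of 152 genes. *Sema3c*, a secreted semaphorin, had 763, 829.8 and 796 TPM and stood above all others. *Hdgf* (335 ± 12.01 TPM), *Grn* (333 ± 12.6 TPM), which encodes progranulin, *Bmp1* (167 ± 8.32 TPM), a procollagen protease, and *Mif* (116 ± 1.60 TPM) followed, then *Sema3e* (89.8 ± 9.35 TPM), *Cx3cl1* (86.8 ± 0.906 TPM), the chemokine fractalkine, *Manf* (82.8 ± 1.29 TPM), *Agrn* (77.3 ± 6.47 TPM) and *Ntn1* (57.3 ± 4.03 TPM). *Ccl2*, a monocyte chemokine, had 43.4, 49.8 and 57.4 TPM. *Fgf8* and *Shh*, morphogens of the embryonic forebrain, had no counts.

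Of 181 receptors listed for ligands that reach GnRH neurons, 33 were at 2 TPM or more (18.2%, against 51.0% of protein-coding genes). No counts were found for 53, and the median was 0.0387 TPM. After *Nr3c1* the highest was *Hcrtr1* (65.6, 55.5 and 55.3 TPM). It is counted per mouse gene, and the part that the human construct gave was not tested. In the parental cells the paper found no clear orexin receptor transcript by qPCR and no detectable response to orexin A. It verified the receptor transcript by qPCR in the transduced cells, so the level here is not to be read as that of the parental line. The level of *Hcrtr1* in replicate 1 was above that in the other samples, which differed little. *F2r*, the thrombin receptor, had 53.8, 52.5 and 58.5 TPM and *Oprd1*, the delta opioid receptor, 27.0, 29.8 and 26.2 TPM. *S1pr2* (19.9 ± 2.38 TPM), a sphingosine phosphate receptor, *Ptger1* (17.6 ± 2.76 TPM), a prostaglandin E receptor, *Npr2* (17.1 ± 1.32 TPM), the receptor of C-type natriuretic peptide, *Insr* (16.98 ± 0.209 TPM) and *Igf1r* (14.6 ± 1.17 TPM) were expressed. *Kiss1r*, the kisspeptin receptor that drives GnRH neurons in vivo, had 2.02, 2.25 and 1.44 TPM, a mean of 1.90 TPM with samples on both sides of the threshold. *Gper1* (1.91, 2.0 and 2.09 TPM) and *Mc4r* (1.71, 2.12 and 2.37 TPM) also straddled it. *Gnrhr* had no counts (up to 0.0548 TPM), nor had *Galr1*, *Npy1r*, *Cnr1* or *Drd2*.

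The receptors of the most abundant surface classes were of other kinds. *Tnfrsf12a*, the TWEAK receptor, had 542, 569 and 595 TPM, more than any other of the single-pass receptor genes in the list, 59 of which were at 2 TPM or more. *Tnfrsf21* (189.6 ± 5.80 TPM), *Sort1* (184 ± 4.38 TPM), the sorting receptor sortilin, *Plxnb2* (156 ± 6.21 TPM) and *Nrp1* (112 ± 10.4 TPM), semaphorin receptors, came next. Of 58 receptor tyrosine kinases 25 were expressed, led by *Ddr1* (139.7 ± 8.87 TPM), a collagen receptor, *Ryk* (114 ± 6.28 TPM), a Wnt receptor, and *Axl* (99.7 ± 1.90 TPM), a TAM receptor that protects migrating GnRH neurons. *Fgfr1*, whose loss causes Kallmann syndrome in humans, had 24.8 ± 1.98 TPM. Of the Frizzled family and *Smo* 8 of 11 passed, with *Fzd3* at 91.8 ± 4.95 TPM and *Smo*, the Hedgehog transducer, at 86.0 ± 3.23 TPM. Adhesion receptors passed for 11 of 30 (*Adgra3* 67.1 ± 3.48 TPM, *Adgrl1*, a latrophilin, 61.6 ± 2.95 TPM) and orphan receptors for 26 of 100 (*Gpr153* 53 ± 2.61 TPM, *Gprc5b* 47.5 ± 5.75 TPM).

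Of 51 genes of congenital GnRH deficiency, known from human genetics, 22 were at 2 TPM or more (43.1%, against 51.0% of protein-coding genes). Beside *Gnrh1*, *Axl*, *Sema3e* and *Fgfr1* these were *Smchd1* (84.1 ± 4.02 TPM), *Rnf216* (67.4 ± 2.57 TPM), *Nsmf* (52.2 ± 1.86 TPM), *Ccdc141* (39.0 ± 3.01 TPM), *Plxna1* (37.1 ± 2.21 TPM), *Dmxl2* (33.2 ± 1.104 TPM), *Wdr11* (31.9 ± 2.06 TPM) and others. Without counts were 12, among them *Fgf8*, *Kiss1*, *Tac2*, *Gnrhr*, *Hesx1* and *Ndnf*. The list mixes genes that act in the neuron with ligands made by its neighbours and genes of the pituitary.

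Ion channel genes were at 2 TPM or more for 86 of 272 (31.6%), below the 51.0% of protein-coding genes, and 54 had no counts. Among 14 voltage-gated sodium channel genes *Scn8a*, which encodes Nav1.6, had 18.9, 18.3 and 14.6 TPM, *Scn7a*, which encodes the sodium-sensing channel Nax, 4.50, 4.68 and 4.67 TPM and *Scn2a1*, which encodes Nav1.2, 2.17, 2.33 and 1.93 TPM. *Scn9a* (1.27 TPM) and *Scn3a* (1.19 TPM) lay just below, and no other subunit reached 1 TPM. The pacemaker channels *Hcn4* (28.2, 35.2 and 29.2 TPM) and *Hcn2* (26.4, 32.1 and 25.3 TPM) overlapped in range, with *Hcn4* the higher in every sample. Both exceeded *Hcn3* (2.71 ± 0.121 TPM). *Scn8a* was lowest in replicate 3, and both pacemaker genes were highest in replicate 2.

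Of 26 voltage-gated calcium channel subunits 11 were expressed. *Cacna1c*, the L-type Cav1.2, had 29.9, 31.8 and 29.7 TPM and *Cacna1h*, the T-type Cav3.2, 15.8, 18.8 and 13.5 TPM. *Cacna1d* (5.13 ± 0.650 TPM), *Cacna1b* (4.11 ± 0.110 TPM) of the N type and *Cacna1a* (2.95 ± 0.178 TPM) of the P/Q type were lower. The auxiliary *Cacnb3* (125 ± 10.33 TPM) exceeded every pore subunit, and *Cacna2d1* had 26.4 ± 2.02 TPM. Calcium stores were served by *Stim1* (68.7 ± 3.14 TPM), *Orai1* (21.9 ± 1.42 TPM), *Orai2* (18.99 ± 0.648 TPM), *Orai3* (17.1 ± 0.929 TPM) and *Itpr1* (11.9 ± 0.314 TPM), the IP3 receptor, with 10 of 13 such genes at 2 TPM or more.

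Potassium channels were few. Of 40 voltage-gated alpha subunits 7 passed, among them *Kcnd3* (9.32, 11.0 and 10.18 TPM), an A-type channel, *Kcnh5* (6.42, 7.87 and 9.69 TPM) and *Kcnh2* (7.77, 8.32 and 7.09 TPM) of the EAG and ERG types. *Kcnh5* and *Kcnh2* overlapped. *Kcna1*, *Kcna3* and *Kcna6* of the Shaker family had no counts. The leak channel *Kcnk1* (90.7, 97.6 and 98.9 TPM) was far above the other K2P genes, of which *Kcnk12* (5.54 ± 1.44 TPM) and *Kcnk3* (3.13 ± 0.219 TPM) passed. *Kcnj2* (4.39 ± 0.845 TPM) was the highest of 15 inward rectifiers, while *Kcnj11*, the pore of the ATP-sensitive channel, and *Kcnj3*, a G protein-gated subunit, had no counts. *Kcnma1*, the BK channel, had 7.52 ± 0.871 TPM.

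Some single channel genes of organelles, volume control and water transport were higher than most of those above. At 2 TPM or more were 19 of 34 chloride and anion channels and 11 of 36 TRP and two-pore channels. For connexins and pannexins it was 6 of 23, and for aquaporins 2 of 11. *Clic1* (211 ± 11.8 TPM) and *Clic4* (201 ± 0.822 TPM), *Clcn3* (138 ± 3.12 TPM), an endosomal chloride-proton exchanger, *Ano6* (97.6 ± 2.22 TPM), a lipid scramblase, *Aqp1* (108 ± 9.09 TPM), a water channel, *Pkd1* (91.8 ± 3.34 TPM), *Trpm7* (74.2 ± 4.47 TPM) and *Gjc1* (28.9 ± 0.625 TPM), a connexin, were expressed. *Gjd2*, the main connexin of electrical synapses, had no counts.

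Of 67 ligand-gated receptor genes 15 were at 2 TPM or more (22.4%), and 8 were at 5 TPM or more. GABA is the main fast input of GnRH neurons, and of the GABA-A genes *Gabra3* had 14.7, 13.2 and 12.1 TPM, *Gabre* 9.68, 10.4 and 9.23 TPM and *Gabrq* 2.98, 2.63 and 3.37 TPM. *Gabre*, *Gabra3* and *Gabrq* lie within 587 kb on the X chromosome. *Gabra5* and *Gabrg3* had 0.0617 and 0.0403 TPM. *Gabrg1* and *Gabra2* had no counts. *Gabra3* exceeded *Gabre* in every sample. The GABA-B subunits *Gabbr1* (10.6 ± 0.777 TPM) and *Gabbr2* (2.52 ± 0.145 TPM) were both expressed. Of the glutamate receptors the kainate subunits *Grik5* (28.9, 32.1 and 26.4 TPM) and *Grik2* (6.12, 6.13 and 5.54 TPM) were the highest, *Grin2d* had 2.32 ± 0.311 TPM, and *Gria1*, *Grin1* and *Grin2b* had no counts. The metabotropic *Grm7* had 23.3, 22.2 and 22.8 TPM. *Glrb* (13.6 ± 0.596 TPM), *Chrnb1* (13.4 ± 0.751 TPM), *Chrna4* (3.92 ± 0.159 TPM) and *P2rx4* (10.6 ± 0.737 TPM) led the glycine, nicotinic and purinergic families.

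**Figure D5:**
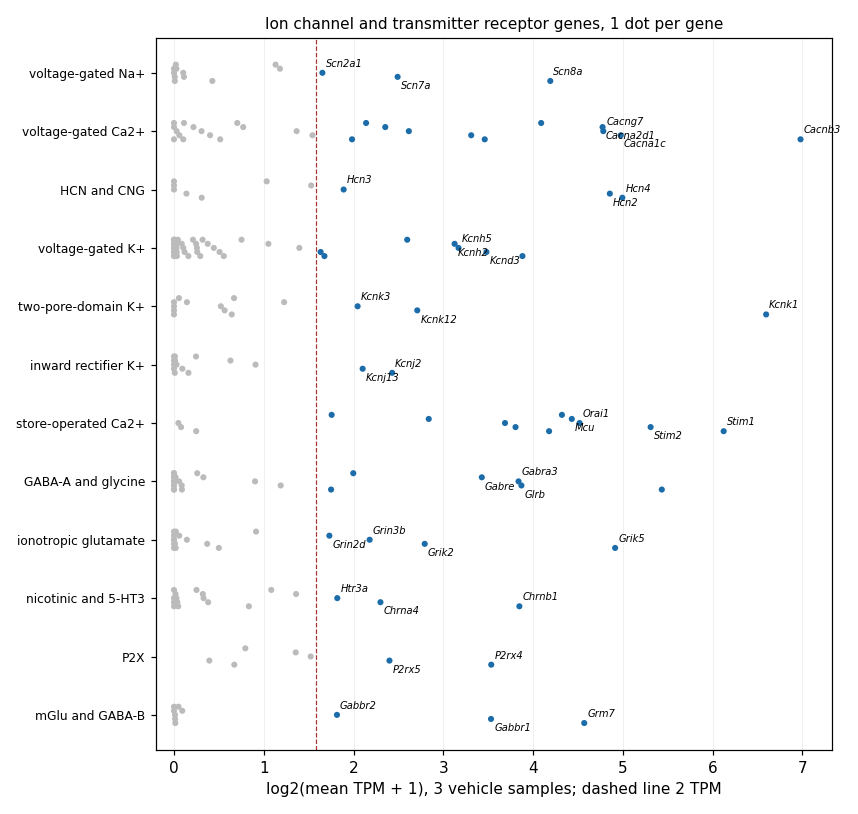
Mean TPM of ion channel and transmitter receptor genes over the 3 vehicle samples, as log2(TPM + 1), in rows by family, with genes at 2 TPM or more in blue and some of them named. In each row shown most dots lie at or left of the dashed 2 TPM line, except in the store-operated calcium row, where 10 of 13 genes lie to its right.

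The 3 samples agreed closely for well-counted genes. The biological coefficient of variation that edgeR estimated from the counts was 4.58% over the 18065 genes with at least 10 counts over the 3 samples, and the CV of TPM had a median of 3.63% at 100 TPM or more, 5.11% at 10 to 100 TPM and 13.6% at 2 to 10 TPM. Each pair of samples differed by 2.87 to 3.65 times the variance of counting alone, so none was a second deposit of another. The 10 genes at 10 TPM or more with the largest gene-wise dispersion, led by *Gm25803*, *Gm23301* and *Gm22888*, were short RNAs with at most 21 counts in a sample. Of 8783 genes with at least 10 TPM and 100 counts in each sample, 28 had a CV over 20%. Chosen after their values were seen, *Lars2*, the mitochondrial leucyl-tRNA synthetase, had 40.7, 11.2 and 13.2 TPM from 1339, 342 and 415 counts and was far higher in replicate 1. *Maff* (7.69, 11.5 and 16.1 TPM), *Fos* (14.7, 20.3 and 23.1 TPM), *F3* (92.2, 92.2 and 142 TPM), which encodes tissue factor, and *Ankrd1* (28.5, 26.0 and 40.9 TPM), genes that respond to serum and growth factors, were highest in replicate 3.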

How the data were processed

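RNA-Seq of 9 samples was deposited, and the 3 vehicle samples were used, grouped by the labels. The authors depleted total RNA of ribosomal RNA and made the libraries with a stranded total RNA kit. The authors trimmed reads with Trimmomatic (version 0.3 in the submitters' processing notes), aligned them to mm10 with STAR 2.5.2a and counted them per gene symbol with HTSeq 0.6.0. The deposited raw counts are whole reads per gene, and the deposited TPM values divide them by gene length and scale each sample to a fixed total. The annotation and the strand setting of the counting are not given in the sources used here. The scale of the lengths behind TPM was set on 1333 single-exon genes, of which 95.1% then lay within 1% of their own length. Over 13850 genes the median ratio to the longest transcript was 1, and 49.96% lay within 1% of it. For *Gnrh1* the implied length was 521 bases, against 486 for its longest transcript. The authors' normalized counts, and their DESeq2 1.10.1 comparison columns of fold changes and p-values, were not used.

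Means, SDs and counts of genes at 2 TPM or more were computed in Python 3.11.15 with pandas 2.3.3, and dispersions with edgeR 4.0.16 in R 4.3.3, an intercept only and TMM scaling, tested on simulated data. Figures were drawn with matplotlib 3.10.9. No test was made, since 1 group has nothing to be tested against. Of 37411 symbols 36244 matched GENCODE M21 by name and 639 through RefSeq, which gave biotypes and positions. Members and gene lists were chosen with earlier results of these data known. Named genes were the 5 markers, the 20 highest genes of all and of nuclear coding genes without ribosomal proteins, up to 8 of highest mean in each list, those with a known role in GnRH neurons, members without counts, and the 10 of largest dispersion. Other genes were named after their values were seen, and some that the rule takes in are not reported here. Thresholds of 1 and 5 TPM, 2 TPM in every sample, a count minimum of 10, other totals, other lengths and leaving out each sample were tried.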

Additional observations from a re-analysis of the deposited data

How the results depend on the processing

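The number of genes at 2 TPM or more was 15785 at 1 TPM, 11359 at 5 TPM, 13150 when every sample had to pass and 13686 among genes with at least 10 counts, all within 1.5 times of 13983. Leaving out 1 sample at a time gave 13921 to 14009 genes, 3813 to 4097 TPM for *Gnrh1* and 3.83 to 5.06% for the coefficient of variation. With exon-union lengths *Gnrh1* had 4028 TPM. Without mitochondrial genes and structural and small RNAs *Gnrh1* was 6454 TPM, and the shares of the 10, 100 and 1000 most abundant genes were 4.43%, 16.6% and 47.1%, and of counts they were 17.2%, 25.9% and 51.4%. Markers of other cells at 2 TPM or more went from 11 to 19 under that total and to 20 at 1 TPM, ligand-gated receptors from 15 to 8 at 5 TPM, and the abundant RNA and protein classes from 654 to 249 under that total, since most of those left out are the RNAs themselves. Of 83 single lists 18 moved by over 1.5 times at 5 TPM, 12 without those RNAs, 8 at 1 TPM and 2 without replicate 3, and 8 of 81 medians moved on the log2(TPM + 1) scale. No paired analysis was possible because the results come from 1 group and no test. With 3 samples a group is too small to judge an outlying sample. Depth limits genes under about 0.1 TPM.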
